A study of Homo sapiens with 12 samples.

Results

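The autophagy machinery was followed here as 40 genes, taken by symbol from the count table: the kinase and lipid kinase complexes that start an autophagosome, the proteins that build and lipidate its membrane, the receptors that load it, and 2 transcription factors of the pathway. All 40 were found among the 58735 genes of the table, and all 40 were among the 20821 genes with enough counts to be tested. RNA-seq was run on K562, a line of human leukemia cells with the BCR-ABL1 fusion kinase that can be driven towards the erythroid fate by hemin. The 4 conditions, with 3 biological replicates each, were mock DMSO (vehicle, no hemin), mock nilotinib (0.1 μM nilotinib, no hemin), hemin DMSO (vehicle, then 50 μM hemin for 24 h) and hemin nilotinib (0.1 μM nilotinib, then 50 μM hemin for 24 h). Nilotinib is an inhibitor of the ABL kinase and was given for 24 h before hemin, while DMSO, its solvent, served as vehicle. All libraries came from 1 cell line, and the mock libraries belong to the 0 h time point, so the hemin comparisons join hemin with the time in culture and the 2 cannot be told apart. The nilotinib effect without hemin was read at 0 h and that with hemin at 24 h. A difference between these effects joins hemin with time in the same way.

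Autophagy encloses cytoplasm in a double membrane and delivers it to the lysosome. The ULK1 kinase complex starts the process, the class III PI3-kinase complex marks the membrane with PI3P, and 2 ubiquitin-like conjugation systems attach ATG8 proteins (the LC3 and GABARAP families) to it, where they hold cargo receptors such as SQSTM1 (p62). Red cell precursors are known to use the pathway to clear mitochondria. mRNA levels alone do not measure autophagic flux.

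The libraries held between 33457078 and 50506990 counts. The 8 erythroid markers examined (GATA1, TAL1, KLF1, LMO2, HBG1, HBG2, EPOR and TFRC) were all present, at a mean of at least 1 CPM (a read count scaled to library size, per 1e+06 counts) in every condition. Their summed level was 1326 to 2177 CPM in mock DMSO, 6250.0 to 7447 in mock nilotinib, 965 to 1131 in hemin DMSO and 4066 to 7123 in hemin nilotinib, so every hemin DMSO library lay below every mock DMSO library. Single markers differed in direction. Hemin in DMSO lowered GATA1, TAL1, KLF1, LMO2 and EPOR (log2 -3.57 to -0.91), and TFRC was not called, at -0.85 (SE 0.50, edgeR adjusted p = 0.162). It raised the fetal globins HBG1, at 0.84 (SE 0.29, edgeR adjusted p = 0.0241), and HBG2, at 0.96 (SE 0.19, edgeR adjusted p = 0.000489). The summed level of 6 myeloid markers was 104 to 117 CPM in mock DMSO and 86.9 to 112 in hemin DMSO, against 17.9 to 20.5 in mock nilotinib and 10.1 to 13.8 in hemin nilotinib, and the defining granule genes MPO and ELANE were under 1 CPM throughout. The 5 megakaryocyte markers summed to 15.1 to 71.1 CPM and the 5 lymphoid ones to 2.01 to 16.6 CPM over all libraries. These sums hid single markers that moved in opposite directions. Hemin in DMSO raised the myeloid CD14, at log2 4.26, and lowered SPI1 and ITGAM, at -0.33 and -0.82, while LYZ was not called. Under nilotinib the megakaryocyte ITGB3 rose, at log2 2.12 with hemin and 2.49 without. ITGA2B fell, at -2.09 and -1.65 in the same order, and GP1BA was called only with hemin, as a rise. Many of these markers moved with nilotinib, though GATA1 was not called without hemin (log2 0.34, SE 0.14, edgeR adjusted p = 0.0572). The part of the markers in the results below was not tested. In bulk RNA, fewer cells of a type and less RNA per cell cannot be told apart.

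Most changes of the autophagy genes under hemin alone were rises, while those under nilotinib ran in both directions. In hemin-treated cells, 31 of the 40 members differed between nilotinib and DMSO, 13 higher and 18 lower, where 64.2% of all genes tested differed (32.4% higher and 31.8% lower). In cells without hemin, nilotinib changed 20 members, 13 higher and 7 lower, against 42.5% of all genes (20.7% higher and 21.8% lower). Hemin without nilotinib changed 19 members, and of these 16 were higher and 3 lower, against 53.6% of all genes (25.7% higher and 27.8% lower). For hemin in nilotinib-treated cells only SQSTM1 and OPTN were called among the members, against 5.80% of all genes (3.52% higher and 2.28% lower). There 12 members had an unadjusted p under 0.05, and a missing call does not show that hemin had no effect. With the replicate number as a block, which pairs the libraries of this comparison, PINK1 was called too, for a count of 3. That fit called 1587 of all genes tested. A paired fit of the 6 libraries alone, chosen after seeing the data, called more members, as given at the end. The shares of members called in the 4 comparisons were 77.5%, 50.0%, 47.5% and 5.0%. Counts by role group below are to be read against the same shares of all genes. Each change was called at a Benjamini-Hochberg adjusted p under 0.05 in edgeR's quasi-likelihood test over all genes tested. The comparison of nilotinib with hemin and that of hemin without nilotinib share the hemin DMSO libraries. Those of nilotinib without hemin and of hemin without nilotinib share the mock DMSO libraries.

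The median log2 fold change of the members was -0.24 for nilotinib with hemin (0.02 over all genes tested), -0.02 for nilotinib without hemin (0.0039 over all genes), 0.27 for hemin without nilotinib (-0.05) and -0.0048 for hemin with nilotinib (0.03). The 3 libraries of the 2 conditions did not overlap at 28 members for nilotinib with hemin (63.5% of all genes), at 28 for nilotinib without hemin (61.0%), at 26 for hemin without nilotinib (62.7%) and at 9 for hemin with nilotinib (23.3%). The split between higher and lower depended on the scaling of the libraries: with no composition factors it was 14 higher and 12 lower for nilotinib with hemin and 10 higher and 7 lower for hemin without nilotinib, and with upper-quartile factors it was 15 higher and 5 lower for nilotinib without hemin. Of all 20821 genes tested, these fits called 13221, 11459 and 8897 in this order. The split of all genes into higher and lower was not counted there, so the splits of the members have no background. Without composition factors, the calls on ATG7, BECN1, CALCOCO2, GABARAP, GABARAPL2 and SQSTM1 were lost for nilotinib with hemin, and those on BECN1, BNIP3, FUNDC1, GABARAPL2, PIK3C3 and UVRAG for hemin without nilotinib. For the latter, ATG4A, ATG4B, PIK3R4 and PINK1 were then called lower.

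**Figure D1:**
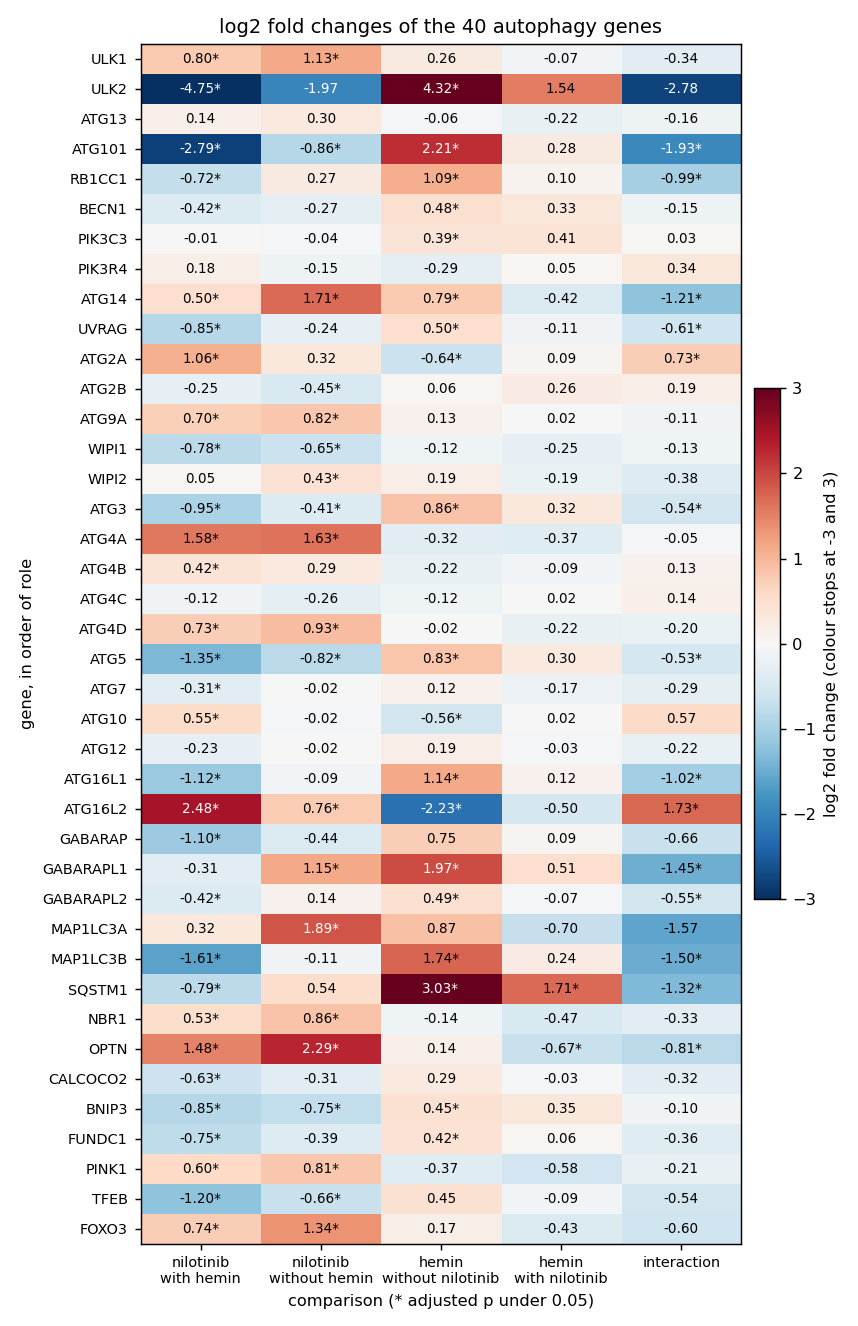
Log2 fold change of each of the 40 members (rows, in order of role) in the 4 comparisons of 2 conditions and in the interaction, the nilotinib effect with hemin minus that without (columns). Red is higher and blue lower, a star marks an adjusted p under 0.05, and the hemin column without nilotinib holds 16 starred rises and 3 starred falls while the column with nilotinib holds 1 of each.

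Promoters of 4 members are shown because these genes are among those with the largest responses to hemin or nilotinib described below, and because 3 of them hold a match to a searched motif. This choice favours matches. OPTN, ATG4A, ATG16L2 and GABARAPL1, which also had large responses, hold no match and are not shown. Of the 40 members, 35 matched the RefSeq promoter table (build GRCh38.p14), and the 250 bases before the RefSeq start were searched on both strands for the E-box CACGTG, the core of the antioxidant response element TGACNNNGC, the GATA motif AGATAA and the FOXO motif GTAAACA. These letters stand in 6.34%, 10.9%, 9.17% and 2.98% of the 35116 promoters of that table and in 3, 3, 2 and 1 of the 35 member promoters. The antioxidant core, in capitals, lies in ATG101 (chr12:52069728-52069977, plus strand, 120 bases before the start) and in MAP1LC3B (chr16:87392086-87392335, plus strand, 46 bases before the start), and the third match was in CALCOCO2. The E-box, in capitals, lies in ATG14 (chr14:55411831-55412080, minus strand, 21 bases before the start), with the other matches in ATG3 and BNIP3. SQSTM1 (chr5:179806143-179806392, plus strand) holds none of these letters in the window. In the 4 windows shown no match overlapped another, and a match describes the letters only.
ATG101: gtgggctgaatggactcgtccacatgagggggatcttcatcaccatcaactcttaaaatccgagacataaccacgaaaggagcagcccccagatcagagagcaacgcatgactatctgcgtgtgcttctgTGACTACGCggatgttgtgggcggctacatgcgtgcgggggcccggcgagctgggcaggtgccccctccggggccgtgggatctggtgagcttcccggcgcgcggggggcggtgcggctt
MAP1LC3B: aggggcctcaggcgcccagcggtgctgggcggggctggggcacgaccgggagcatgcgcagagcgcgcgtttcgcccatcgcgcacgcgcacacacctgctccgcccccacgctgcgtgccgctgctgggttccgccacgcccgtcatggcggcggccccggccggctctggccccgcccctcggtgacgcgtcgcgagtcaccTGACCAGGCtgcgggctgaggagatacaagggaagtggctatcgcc
ATG14: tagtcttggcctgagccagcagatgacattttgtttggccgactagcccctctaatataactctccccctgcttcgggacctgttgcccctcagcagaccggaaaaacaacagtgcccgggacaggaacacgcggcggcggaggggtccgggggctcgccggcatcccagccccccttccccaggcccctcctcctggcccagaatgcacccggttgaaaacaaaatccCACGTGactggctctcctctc
SQSTM1: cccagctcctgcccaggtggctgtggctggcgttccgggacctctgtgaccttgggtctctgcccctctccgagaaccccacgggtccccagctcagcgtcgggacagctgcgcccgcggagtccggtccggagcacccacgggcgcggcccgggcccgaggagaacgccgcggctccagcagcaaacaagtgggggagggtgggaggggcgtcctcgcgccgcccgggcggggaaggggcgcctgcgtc
The windows of ATG101 and MAP1LC3B lie inside the spans that the count table gives for these genes, which begin further upstream. The part of the ATG14 window next to the RefSeq start, with the E-box, also lies inside the span of that gene.

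In the ULK1 complex, hemin without nilotinib raised 3 of 5 members, and nilotinib in hemin-treated cells lowered 3 and raised 1. ATG101 (ENSG00000123395, chr12:52069246-52077494), the subunit that stabilizes ATG13 in the complex, was at 14.4, 13.8 and 16.2 CPM in mock DMSO, 7.86, 8.4 and 8.22 in mock nilotinib, 68, 72.5 and 65.6 in hemin DMSO and 8.48, 9.2 and 12 in hemin nilotinib. The 3 hemin DMSO libraries stood far above the other 9, and the 2 nilotinib conditions lay below mock DMSO. Hemin raised ATG101 4.63-fold in DMSO, a log2 fold change of 2.21 (SE 0.15, edgeR adjusted p = 1.69e-08), and nilotinib lowered it 6.93-fold in hemin-treated cells, at -2.79 (SE 0.15, edgeR adjusted p = 5.22e-10), and 1.82-fold without hemin, at -0.86 (SE 0.15, edgeR adjusted p = 0.000199). In nilotinib-treated cells the hemin difference was 0.28 (SE 0.15, edgeR adjusted p = 0.295), although the libraries did not overlap. An antisense gene covers 19.2% of the exon length of ATG101, and strand use in the counting is not given in the sources used here.

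ULK1 (ENSG00000177169), the kinase itself, showed the other pattern. Its libraries were at 110.2, 105 and 90.5 CPM in mock DMSO, 199.8, 225 and 244 in mock nilotinib, 151, 93.4 and 121 in hemin DMSO and 148, 216 and 270.4 in hemin nilotinib. Without hemin the nilotinib libraries all lay above the DMSO libraries, while with hemin the lowest nilotinib library lay below the highest DMSO library. The log2 fold change under nilotinib was 1.13 (SE 0.20, edgeR adjusted p = 0.000262) without hemin and 0.80 (SE 0.20, edgeR adjusted p = 0.00237) with it, and hemin gave 0.26 (SE 0.20, edgeR adjusted p = 0.282) without nilotinib. RB1CC1 (FIP200), the scaffold of the complex, rose under hemin from 112 ± 4.84 to 240.1 ± 31.8 CPM (mean ± SD, n = 3), at log2 1.09 (SE 0.16, edgeR adjusted p = 3.76e-05), and stood at 146 ± 31.9 CPM in hemin nilotinib, at log2 -0.72 (SE 0.16, edgeR adjusted p = 0.00103) against hemin DMSO. ATG13, the adaptor that links kinase and scaffold, passed the test in none of the 4 comparisons, with means from 90.7 to 117 CPM.

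ULK2 (ENSG00000083290), the paralog of ULK1, was close to absent outside hemin DMSO. Its raw counts were 4, 7 and 1 in mock DMSO, 0, 2 and 0 in mock nilotinib, 21, 58 and 102 in hemin DMSO and 0, 1 and 6 in hemin nilotinib. The 3 hemin DMSO libraries, at 0.643, 1.85 and 2.59 CPM, did not overlap those of any other condition. The test called the rise under hemin (adjusted p = 0.000176 in edgeR) and the fall under nilotinib in hemin-treated cells (adjusted p = 9.92e-05 in edgeR). ULK2 passed the count filter only through the hemin DMSO libraries, where it was high, so these calls are no separate evidence of a difference. They are included in the counts of members called. The fitted fold of counts this low depends on the prior count. For nilotinib with hemin its log2 value ran from -6.61 to -0.22 over the alternatives.

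In the class III PI3-kinase complex, hemin without nilotinib raised 4 of 5 members by small amounts. ATG14 (ENSG00000126775), the subunit that directs the complex to the autophagosome, was at 14, 14.3 and 15.6 CPM in mock DMSO, 36.6, 51 and 55.8 in mock nilotinib, 32.8, 18.8 and 24.3 in hemin DMSO and 28.9, 34.6 and 43.5 in hemin nilotinib. Mock DMSO held the 3 lowest libraries of the 12, mock nilotinib lay above both DMSO conditions, and hemin nilotinib overlapped its neighbours on both sides. Nilotinib raised ATG14 3.27-fold without hemin, at log2 1.71 (SE 0.21, edgeR adjusted p = 7.21e-06), and hemin raised it in DMSO at log2 0.79 (SE 0.21, edgeR adjusted p = 0.0042). With hemin the nilotinib difference was 0.50 (SE 0.20, edgeR adjusted p = 0.0436), a call lost when any of 4 of the 6 libraries (hemin DMSO replicate 2 or 3, hemin nilotinib replicate 2 or 3) was left out, at log2 0.32 to 0.51 and edgeR adjusted p = 0.069 to 0.186.

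UVRAG (ENSG00000198382), the subunit of the endosomal form of the complex, was at 29.2, 29.9 and 35.7 CPM in mock DMSO, 26.3, 27.8 and 26.2 in mock nilotinib, 45.3, 47.2 and 41.6 in hemin DMSO and 28.5, 26.2 and 19.9 in hemin nilotinib. The hemin DMSO libraries were the 3 highest of the 12. Nilotinib lowered UVRAG in hemin-treated cells by log2 0.85 (SE 0.15, edgeR adjusted p = 9.95e-05), and hemin raised it in DMSO by 0.50 (SE 0.14, edgeR adjusted p = 0.00822), while nilotinib without hemin gave -0.24 (SE 0.15, edgeR adjusted p = 0.199). Leaving out mock DMSO replicate 1 lost the hemin call on UVRAG (log2 0.38, edgeR adjusted p = 0.0889).

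BECN1 (Beclin 1; ENSG00000126581), the regulatory subunit, was at 34.6, 35.8 and 36 CPM in mock DMSO, 27.8, 28.2 and 32 in mock nilotinib, 49.6, 50 and 48.6 in hemin DMSO and 29.3, 36.9 and 44.4 in hemin nilotinib. It stood highest in hemin DMSO and lowest in mock nilotinib, while the hemin nilotinib libraries spread over the range between them. The log2 fold change was 0.48 (SE 0.14, edgeR adjusted p = 0.00913) for hemin without nilotinib and -0.42 (SE 0.14, edgeR adjusted p = 0.0155) for nilotinib with hemin. The first call was lost without mock DMSO replicate 1 (log2 0.39, edgeR adjusted p = 0.0607) and the second without hemin nilotinib replicate 1 (log2 -0.27, edgeR adjusted p = 0.0829), and genes on the opposite strand cover 17.1% of the exon length of BECN1. In nilotinib-treated cells hemin gave BECN1 a difference of 0.33 (SE 0.14, edgeR adjusted p = 0.185), with overlapping libraries. PIK3C3 (VPS34), the catalytic subunit, rose by log2 0.39 (SE 0.14, edgeR adjusted p = 0.0244) under hemin in DMSO, a call lost without hemin DMSO replicate 1 or any mock DMSO library (log2 0.23 to 0.39, edgeR adjusted p = 0.065 to 0.137). In nilotinib-treated cells the hemin difference of PIK3C3 was of like size, 0.41 (SE 0.14, edgeR adjusted p = 0.0856), and the libraries did not overlap. PIK3R4, its kinase-like partner, passed the test in no comparison, at means of 23.8 to 29.1 CPM.

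Among the lipid transfer proteins and PI3P readers, ATG9A and WIPI1 moved under nilotinib in opposite directions. ATG9A (ENSG00000198925), the lipid scramblase carried by the seed vesicles of the autophagosome, was at 49.1, 53.2 and 57.5 CPM in mock DMSO, 81.5, 95.8 and 104 in mock nilotinib, 64.3, 54 and 57.1 in hemin DMSO and 85.2, 95.4 and 105 in hemin nilotinib. All 6 nilotinib libraries lay above all 6 DMSO libraries. The log2 fold change was 0.82 (SE 0.13, edgeR adjusted p = 0.000109) without hemin and 0.70 (SE 0.13, edgeR adjusted p = 0.000216) with it, but another gene on the same strand covers 38.8% of the exon length of ATG9A, so part of its counts could not be assigned with certainty.

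WIPI1 (ENSG00000070540), a PI3P-binding scaffold, was at 20.6, 22 and 19.8 CPM in mock DMSO, 10.6, 14.7 and 14.6 in mock nilotinib, 24.4, 18 and 15.1 in hemin DMSO and 9.54, 12.3 and 11.7 in hemin nilotinib. The 6 nilotinib libraries were the 6 lowest. Nilotinib lowered it by log2 0.78 (SE 0.19, edgeR adjusted p = 0.00213) with hemin and by 0.65 (SE 0.19, edgeR adjusted p = 0.0114) without, the latter call being lost without mock nilotinib replicate 1 (log2 -0.51, edgeR adjusted p = 0.0623). Genes on the opposite strand cover 28.1% of the exon length of WIPI1.

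ATG2A (ENSG00000110046), a bridge that transfers lipids into the growing membrane, was at 83.8, 89.7 and 83.6 CPM in mock DMSO, 109, 104 and 109 in mock nilotinib, 76.2, 39.4 and 48.8 in hemin DMSO and 114, 105 and 124 in hemin nilotinib. The hemin DMSO libraries were the 3 lowest, and replicate 1 of that condition was the closest to the mock values. Hemin lowered ATG2A in DMSO by log2 0.64 (SE 0.18, edgeR adjusted p = 0.00608), and nilotinib raised it in hemin-treated cells at log2 1.06 (SE 0.18, edgeR adjusted p = 8.28e-05), while nilotinib without hemin gave 0.32 (SE 0.18, edgeR adjusted p = 0.151). The paralog ATG2B fell under nilotinib without hemin by 0.45 (SE 0.17, edgeR adjusted p = 0.0392), a call lost when any of 4 of the 6 libraries (mock DMSO replicate 2 or 3, mock nilotinib replicate 1 or 2) was left out (log2 -0.49 to -0.41, edgeR adjusted p = 0.0617 to 0.106). WIPI2, the PI3P reader that recruits ATG16L1, rose there by 0.43 (SE 0.13, edgeR adjusted p = 0.0149), a call lost without mock DMSO replicate 1 or mock nilotinib replicate 2 or 3 (log2 0.31 to 0.38, edgeR adjusted p = 0.083 to 0.12).

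The conjugation machinery held members with large moves in both directions. ATG5 (ENSG00000057663), which is joined to ATG12 to form the ligase of the ATG8 proteins, was at 41.8, 42.2 and 41 CPM in mock DMSO, 23.4, 24.5 and 23.1 in mock nilotinib, 74.6, 79.3 and 68.7 in hemin DMSO and 31, 30.7 and 25.7 in hemin nilotinib. The hemin DMSO libraries were the 3 highest, mock DMSO lay in the middle, and all 6 nilotinib libraries lay below it. Nilotinib lowered ATG5 2.55-fold with hemin, at log2 -1.35 (SE 0.12, edgeR adjusted p = 9.66e-08), and 1.76-fold without, at log2 -0.82 (SE 0.12, edgeR adjusted p = 4.56e-05), and hemin raised it in DMSO at log2 0.83 (SE 0.12, edgeR adjusted p = 2.63e-05). ATG3, the E2-like enzyme that hands ATG8 to lipid, had means of 31.2 ± 3.21 CPM in mock DMSO, 23.4 ± 0.433 in mock nilotinib, 56.6 ± 2.13 in hemin DMSO and 29.2 ± 4.55 in hemin nilotinib. Its log2 fold change was 0.86 (SE 0.14, edgeR adjusted p = 6.35e-05) for hemin in DMSO, -0.95 (SE 0.14, edgeR adjusted p = 1.47e-05) for nilotinib with hemin and -0.41 (SE 0.14, edgeR adjusted p = 0.022) for nilotinib without hemin, the last call being lost without mock DMSO or mock nilotinib replicate 2 or 3 (log2 -0.44 to -0.37, edgeR adjusted p = 0.0511 to 0.0836).

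The 2 paralogs of ATG16, the third part of that ligase, moved in opposite directions under hemin. ATG16L1, the form that places the ligase on the membrane, was at 17.4, 18.5 and 21 CPM in mock DMSO, 19.4, 16.9 and 17 in mock nilotinib, 33.7, 47.6 and 44.2 in hemin DMSO and 23.9, 16.9 and 17.1 in hemin nilotinib. ATG16L2 (ENSG00000168010), a paralog whose role in canonical autophagy is less clear, was at 36.8, 25.1 and 22.1 CPM in mock DMSO, 60.6, 45.3 and 35.9 in mock nilotinib, 5.79, 5.62 and 6.49 in hemin DMSO and 33.3, 28.3 and 38.5 in hemin nilotinib. The hemin DMSO libraries were the 3 highest of 12 for ATG16L1 and the 3 lowest for ATG16L2. Hemin in DMSO raised ATG16L1 2.21-fold, at log2 1.14 (SE 0.17, edgeR adjusted p = 3.84e-05), and lowered ATG16L2 4.68-fold, at log2 -2.23 (SE 0.22, edgeR adjusted p = 6.53e-07). Nilotinib in hemin-treated cells gave -1.12 (SE 0.17, edgeR adjusted p = 2.97e-05) for ATG16L1 and 2.48 (SE 0.22, edgeR adjusted p = 9.38e-08) for ATG16L2. Without hemin, nilotinib raised ATG16L2 by log2 0.76 (SE 0.21, edgeR adjusted p = 0.00703), with 1 mock nilotinib library below the highest mock DMSO library, and this call was lost without mock DMSO replicate 3 or mock nilotinib replicate 1 (log2 0.54 to 0.59, edgeR adjusted p = 0.0539 to 0.054).

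Of the 4 ATG4 proteases, which trim ATG8 proteins and release them from lipid, ATG4A and ATG4D rose under nilotinib in both settings. ATG4A (ENSG00000101844, chrX:108091668-108154671) was at 24.1, 37.4 and 45.3 CPM in mock DMSO, 91.1, 119.5 and 119 in mock nilotinib, 29.2, 27.3 and 28.8 in hemin DMSO and 72.4, 94.4 and 87.6 in hemin nilotinib. All 6 nilotinib libraries lay above all 6 DMSO libraries. Nilotinib raised ATG4A 3.09-fold without hemin, at log2 1.63 (SE 0.19, edgeR adjusted p = 4.56e-06), and 2.98-fold with it, at log2 1.58 (SE 0.19, edgeR adjusted p = 2.77e-06). ATG4D rose at log2 0.93 (SE 0.14, edgeR adjusted p = 4.38e-05) and 0.73 (SE 0.14, edgeR adjusted p = 0.000203) in the same order, with an opposite-strand gene over 15% of its exon length, and ATG4B rose with hemin at 0.42 (SE 0.12, edgeR adjusted p = 0.00516). ATG4C passed the test nowhere, with means from 14.4 to 17.3 CPM.

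ATG10 (ENSG00000152348), the E2-like enzyme that joins ATG12 to ATG5, was at 18.5, 18.3 and 18 CPM in mock DMSO, 17, 18.3 and 18.6 in mock nilotinib, 11.6, 14.2 and 11.5 in hemin DMSO and 22.2, 18.3 and 14.1 in hemin nilotinib. The hemin DMSO libraries were lower than all mock libraries, and the hemin nilotinib libraries reached down to them. Hemin lowered ATG10 in DMSO by log2 0.56 (SE 0.17, edgeR adjusted p = 0.00986), and nilotinib with hemin raised it by 0.55 (SE 0.17, edgeR adjusted p = 0.00877), a call lost in the 6 libraries alone with the replicate block (edgeR adjusted p = 0.0507). ATG7, the E1-like enzyme of both conjugation systems, was called once, at log2 -0.31 (SE 0.13, edgeR adjusted p = 0.0429) for nilotinib with hemin, and this call was lost without any 1 of 5 of the 6 libraries, all but hemin DMSO replicate 3 (log2 -0.33 to -0.26, edgeR adjusted p = 0.0543 to 0.154). ATG12 was not called in any comparison, with means from 42.3 to 49.8 CPM.

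The ATG8 family, the ubiquitin-like proteins that coat the autophagosome, was raised by hemin without nilotinib at 3 of its 5 members. MAP1LC3B (LC3B; ENSG00000140941, chr16:87383995-87404779), the family member most used as an autophagosome marker, was at 104, 124 and 121 CPM in mock DMSO, 94.5, 111 and 117 in mock nilotinib, 394, 399 and 375 in hemin DMSO and 104, 144 and 134 in hemin nilotinib. The 3 hemin DMSO libraries stood apart from the other 9, which overlapped one another. Hemin raised MAP1LC3B 3.35-fold in DMSO, at log2 1.74 (SE 0.14, edgeR adjusted p = 1.06e-07), and nilotinib lowered it 3.06-fold in hemin-treated cells, at log2 -1.61 (SE 0.14, edgeR adjusted p = 8.89e-08). Without hemin nilotinib gave -0.11 (SE 0.14, edgeR adjusted p = 0.541), and hemin in nilotinib-treated cells gave 0.24 (SE 0.14, edgeR adjusted p = 0.334). Its near copy MAP1LC3B2 held 143 to 421 counts in the 12 libraries, and 2.83% of the 150-base words of MAP1LC3B occur in that gene.

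GABARAPL1 (ENSG00000139112) was higher both in mock nilotinib and in hemin DMSO, each read against the same mock DMSO libraries. Its libraries were at 22.6, 22.3 and 25.3 CPM in mock DMSO, 42.6, 52.3 and 60.5 in mock nilotinib, 114, 73.4 and 87.1 in hemin DMSO and 55.4, 79.7 and 86.4 in hemin nilotinib. Mock DMSO held the 3 lowest libraries, mock nilotinib the next with 1 hemin nilotinib library among them, and the hemin conditions overlapped each other. The log2 fold change was 1.97 (SE 0.19, edgeR adjusted p = 5.75e-07) for hemin in DMSO and 1.15 (SE 0.19, edgeR adjusted p = 0.000128) for nilotinib without hemin, while nilotinib in hemin-treated cells gave -0.31 (SE 0.18, edgeR adjusted p = 0.154) and hemin in nilotinib-treated cells 0.51 (SE 0.19, edgeR adjusted p = 0.116). GABARAPL2 (GATE-16) rose under hemin in DMSO by log2 0.49 (SE 0.13, edgeR adjusted p = 0.00535), from 73.4 ± 2.1 to 103 ± 8.4 CPM, and fell under nilotinib with hemin by 0.42 (SE 0.13, edgeR adjusted p = 0.0111).

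MAP1LC3A (ENSG00000101460) was scarce, with raw counts of 8, 20 and 18 in mock DMSO, 35, 48 and 44 in mock nilotinib, 14, 30 and 15 in hemin DMSO and 14, 26 and 45 in hemin nilotinib. Of the 4 comparisons, only that of nilotinib without hemin had separate libraries, at 0.888, 1.4 and 1.27 against 0.144, 0.477 and 0.346 CPM. That rise was called at log2 1.89 (SE 0.49, edgeR adjusted p = 0.00524). GABARAP stood at means of 1.96 to 4.43 CPM and was called once, at log2 -1.10 (SE 0.46, edgeR adjusted p = 0.0457) for nilotinib with hemin, a call lost without hemin DMSO replicate 2 or 3 or hemin nilotinib replicate 1 (log2 -1.07 to -0.70, edgeR adjusted p = 0.0917 to 0.13). Other genes share 39.3% of the 150-base words of GABARAP, so its counts are uncertain.

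**Figure D2:**
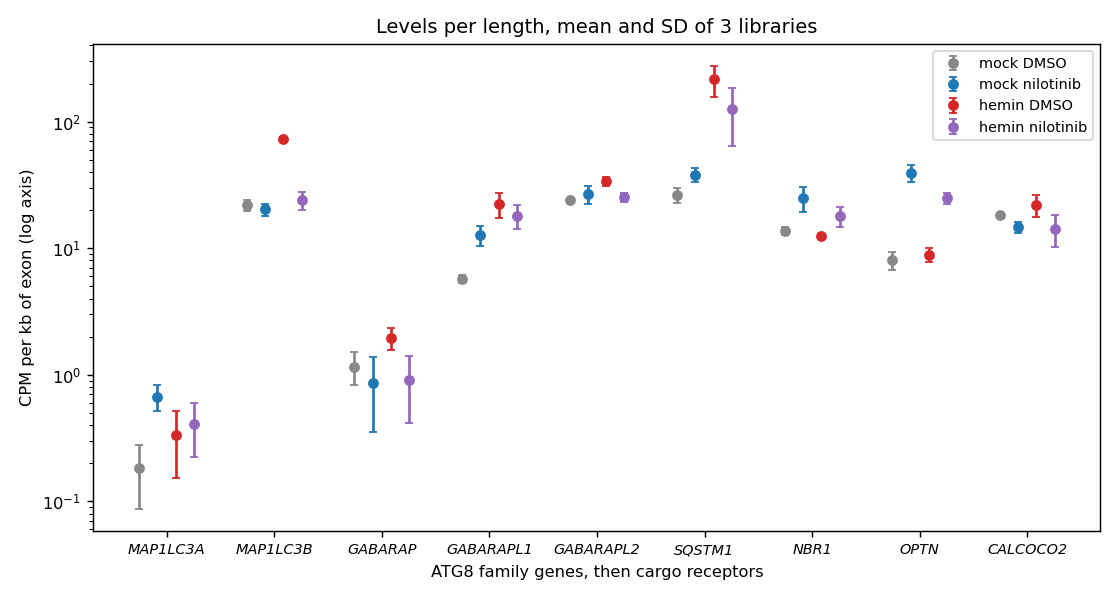
Mean and SD over 3 libraries of CPM per kb of exon (vertical log axis) for the 5 ATG8 genes and 4 cargo receptors (horizontal axis), by condition in colour. SQSTM1 reached 216 CPM per kb and MAP1LC3B 73.3 in hemin DMSO, while MAP1LC3A stayed under 1 in every condition.

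The ubiquitin-binding cargo receptors responded each in its own way, and SQSTM1 carried the largest called rise under hemin among members above 10 CPM. SQSTM1 (p62; ENSG00000161011, chr5:179806398-179838078), which binds ubiquitinated cargo, ATG8 proteins and KEAP1, was at 171, 217 and 217 CPM in mock DMSO, 253, 293 and 332 in mock nilotinib, 2169, 1451 and 1333 in hemin DMSO and 457, 1045 and 1370.4 in hemin nilotinib. All hemin libraries lay above all mock libraries, and within hemin nilotinib the lowest library, replicate 1, stood far under the other two. Hemin raised SQSTM1 8.19-fold in DMSO, at log2 3.03 (SE 0.31, edgeR adjusted p = 9.37e-07), and 3.27-fold in nilotinib-treated cells, at log2 1.71 (SE 0.29, edgeR adjusted p = 0.00459). Fitted on the 6 nilotinib libraries alone, the last difference was 1.72 with an edgeR adjusted p = 0.0537. Nilotinib in hemin-treated cells gave -0.79 (SE 0.29, edgeR adjusted p = 0.0249) with overlapping libraries, a call lost without hemin DMSO replicate 1 (log2 -0.54, edgeR adjusted p = 0.136) or hemin nilotinib replicate 1 (log2 -0.44, edgeR adjusted p = 0.0631). Without hemin nilotinib gave 0.54 (SE 0.29, edgeR adjusted p = 0.144), and genes on the opposite strand cover 22% of the exon length of SQSTM1.

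**Figure D3:**
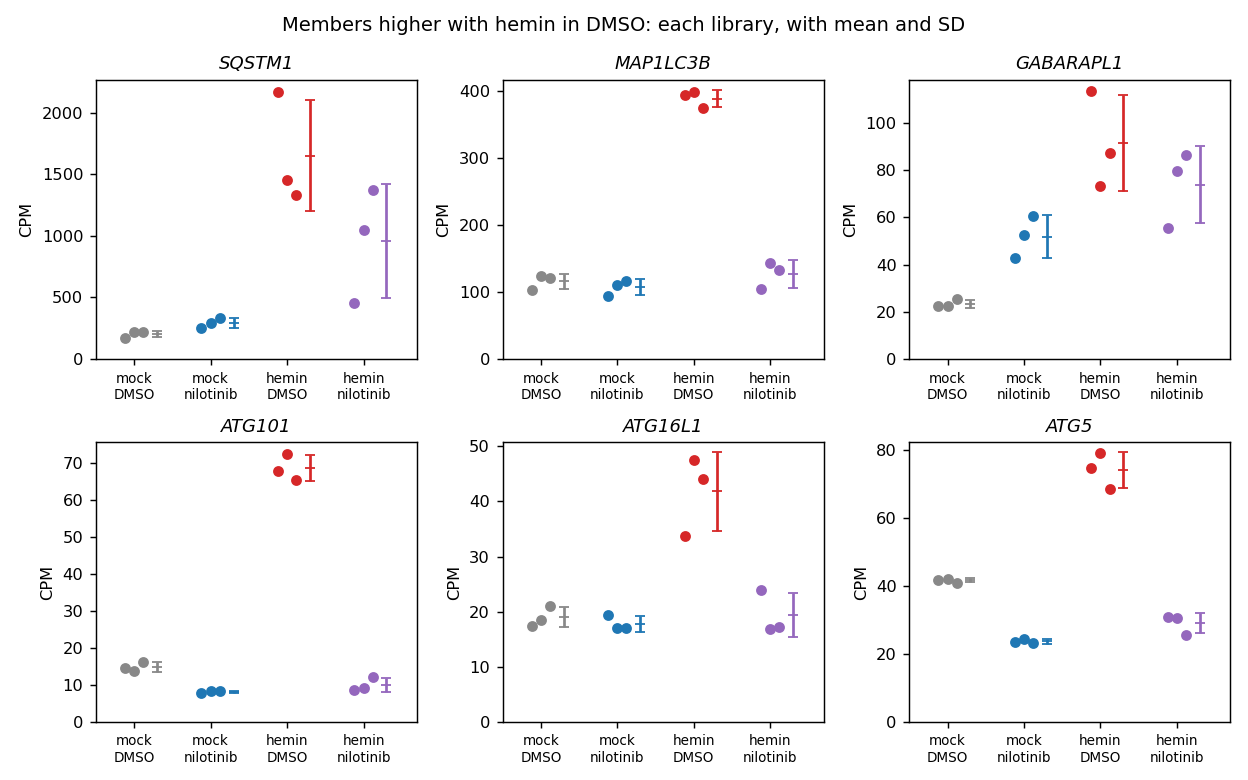
CPM of 6 members in each of the 12 libraries (points) with the mean and SD of each condition (bars), on axes that start at 0. In each panel hemin DMSO (red) holds the highest mean, and for MAP1LC3B, ATG101, ATG16L1 and ATG5 its 3 libraries are above the other 9.

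OPTN (optineurin; ENSG00000123240, chr10:13099449-13138308), a receptor for ubiquitinated mitochondria and bacteria, was at 33.6, 44.5 and 45.7 CPM in mock DMSO, 166, 221 and 219 in mock nilotinib, 42.6, 52.4 and 41.9 in hemin DMSO and 115, 139.9 and 126 in hemin nilotinib. All 6 DMSO libraries were lowest and overlapped, hemin nilotinib lay above them, and mock nilotinib was highest. Nilotinib raised OPTN 4.9-fold without hemin, at log2 2.29 (SE 0.16, edgeR adjusted p = 1.67e-08), and 2.79-fold with hemin, at log2 1.48 (SE 0.16, edgeR adjusted p = 6.31e-07). Hemin lowered OPTN in nilotinib-treated cells by log2 0.67 (SE 0.15, edgeR adjusted p = 0.0206), a call lost without mock nilotinib replicate 2 (log2 -0.62, edgeR adjusted p = 0.103) or replicate 3 (log2 -0.63, edgeR adjusted p = 0.089) and in a fit of the 6 libraries alone (log2 -0.66, edgeR adjusted p = 0.0675). In DMSO hemin gave 0.14 (SE 0.15, edgeR adjusted p = 0.448).

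NBR1 (ENSG00000188554), the ubiquitin receptor related to SQSTM1, was at 106, 118 and 121 CPM in mock DMSO, 157, 232 and 238 in mock nilotinib, 109, 103 and 102 in hemin DMSO and 119.7, 173 and 160.2 in hemin nilotinib. The nilotinib libraries lay above the DMSO libraries at each hemin setting, while hemin nilotinib replicate 1 lay inside the range of mock DMSO. Nilotinib raised NBR1 at log2 0.86 (SE 0.16, edgeR adjusted p = 0.000512) without hemin and 0.53 (SE 0.16, edgeR adjusted p = 0.0099) with it, the latter call being lost without hemin nilotinib replicate 2 (log2 0.41, edgeR adjusted p = 0.0574). CALCOCO2 (NDP52), a receptor for bacteria and mitochondria, was called once, at log2 -0.63 (SE 0.19, edgeR adjusted p = 0.00775) for nilotinib with hemin, and not without hemin DMSO replicate 1 (log2 -0.46, edgeR adjusted p = 0.0517).

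Of the mitophagy genes, the receptors BNIP3 and FUNDC1 fell and the kinase PINK1 rose under nilotinib in hemin-treated cells. BNIP3 (ENSG00000176171), a receptor in the outer mitochondrial membrane, was at 88.1, 97.8 and 86.4 CPM in mock DMSO, 50.3, 52.3 and 59.6 in mock nilotinib, 130.2, 132 and 110.4 in hemin DMSO and 60.1, 84 and 62.8 in hemin nilotinib. The nilotinib libraries were the 6 lowest, and hemin DMSO was highest. Nilotinib lowered BNIP3 by log2 0.85 (SE 0.14, edgeR adjusted p = 7e-05) with hemin and 0.75 (SE 0.14, edgeR adjusted p = 0.00046) without, and hemin raised it in DMSO by 0.45 (SE 0.14, edgeR adjusted p = 0.0123), a call lost without mock DMSO replicate 1 (log2 0.36, edgeR adjusted p = 0.0829) or replicate 3 (log2 0.37, edgeR adjusted p = 0.078). In nilotinib-treated cells hemin gave 0.35 (SE 0.14, edgeR adjusted p = 0.156), and the libraries did not overlap.

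FUNDC1 (ENSG00000069509), another outer-membrane receptor, was at 11.9, 10.8 and 13.3 CPM in mock DMSO, 9.99, 8.37 and 9.11 in mock nilotinib, 14.2, 19.4 and 14.8 in hemin DMSO and 10.3, 9.77 and 8.6 in hemin nilotinib. Its hemin DMSO libraries were the 3 highest. The log2 fold change was -0.75 (SE 0.17, edgeR adjusted p = 0.00107) for nilotinib with hemin, -0.39 (SE 0.17, edgeR adjusted p = 0.0751) without hemin and 0.42 (SE 0.17, edgeR adjusted p = 0.0432) for hemin in DMSO, and the hemin call was lost without hemin DMSO replicate 2 or any mock DMSO library (log2 0.28 to 0.46, edgeR adjusted p = 0.0743 to 0.183).

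PINK1 (ENSG00000158828), the kinase that marks damaged mitochondria, was at 20.9, 23.3 and 22.9 CPM in mock DMSO, 28.8, 41.9 and 47.1 in mock nilotinib, 14.6, 19 and 18.3 in hemin DMSO and 21.5, 26.2 and 30.8 in hemin nilotinib. Nilotinib libraries lay above DMSO libraries at each hemin setting. It rose under nilotinib at log2 0.81 (SE 0.18, edgeR adjusted p = 0.00196) without hemin and 0.60 (SE 0.18, edgeR adjusted p = 0.00953) with it. Hemin in nilotinib-treated cells gave -0.58 (SE 0.18, edgeR adjusted p = 0.0705), and with the replicate number as a block, which pairs these libraries, -0.57 with an edgeR adjusted p = 0.0213. An antisense transcript covers 39.4% of the exon length of PINK1, and the 2 cannot be told apart without strand.

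The 2 transcription factors moved in opposite directions under nilotinib, both with and without hemin. FOXO3 (ENSG00000118689), which activates autophagy genes and acts in red cell maturation, was at 82.4, 96.5 and 97.9 CPM in mock DMSO, 209, 253 and 240.0 in mock nilotinib, 108, 81 and 123 in hemin DMSO and 153, 207 and 161 in hemin nilotinib. The DMSO libraries were the 6 lowest, with no overlap. The log2 fold change was 1.34 (SE 0.16, edgeR adjusted p = 6.89e-06) without hemin, a rise of 2.54-fold, and 0.74 (SE 0.16, edgeR adjusted p = 0.000848) with it. The copy FOXO3B held 36 to 190 counts in the 12 libraries, and 11.6% of the 150-base words of FOXO3 occur in it and 1 other gene.

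TFEB (ENSG00000112561), the regulator of lysosome and autophagy genes, was low, at 7.63, 7.73 and 6.13 CPM in mock DMSO, 4.82, 4.84 and 3.89 in mock nilotinib, 8.09, 11.8 and 9.49 in hemin DMSO and 3.77, 3.9 and 5.07 in hemin nilotinib. Nilotinib libraries lay below DMSO libraries throughout. TFEB fell under nilotinib by log2 1.20 (SE 0.21, edgeR adjusted p = 0.000111) with hemin and by 0.66 (SE 0.21, edgeR adjusted p = 0.017) without, the latter call being lost without mock DMSO replicate 2 or mock nilotinib replicate 3 (log2 -0.61 to -0.60, edgeR adjusted p = 0.0645 to 0.0664). Neither factor was called for hemin in DMSO, where TFEB gave 0.45 (SE 0.20, edgeR adjusted p = 0.0726) and FOXO3 0.17 (SE 0.16, edgeR adjusted p = 0.383).

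**Figure D4:**
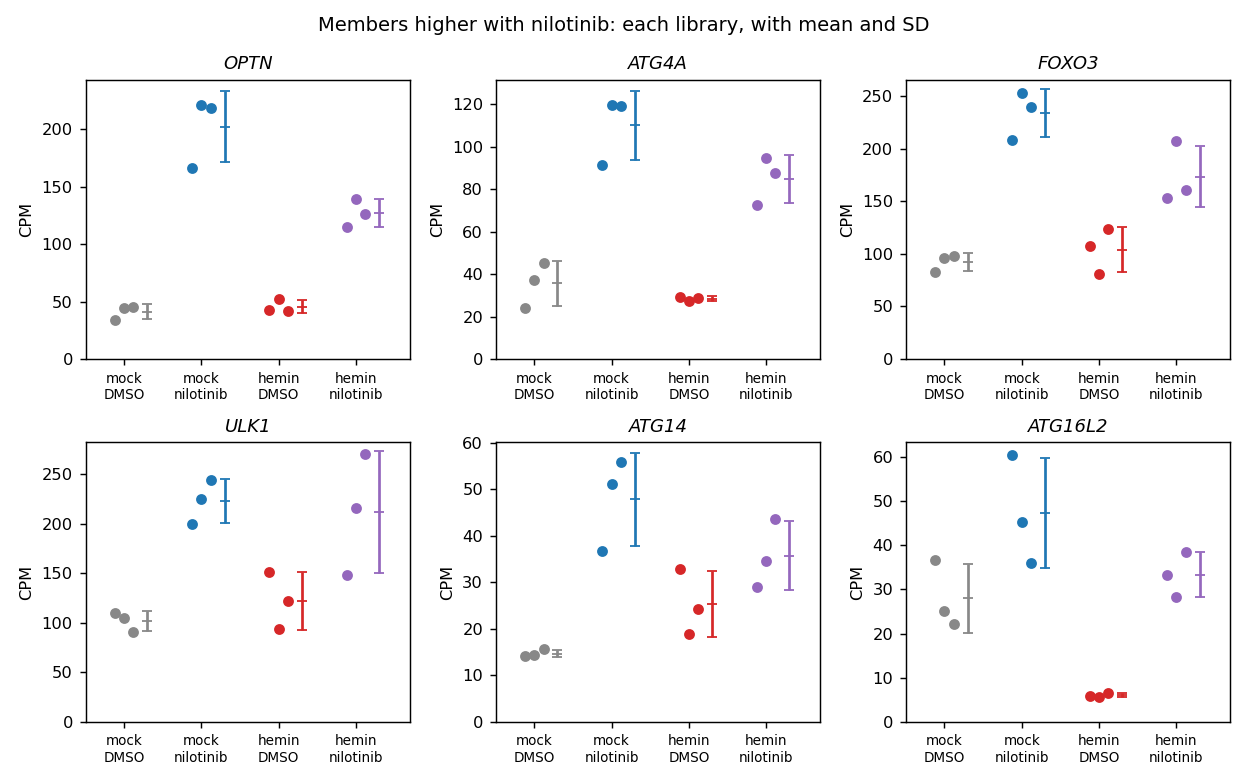
CPM of 6 members in each of the 12 libraries (points) with the mean and SD of each condition (bars), on axes that start at 0. For OPTN, ATG4A and FOXO3 the 6 nilotinib libraries (blue and purple) are above the 6 DMSO libraries (grey and red), while for ATG16L2 hemin DMSO lies at 5.62 to 6.49 CPM, below every other library.

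The nilotinib comparisons with and without hemin share no library. Of the 13 members higher with hemin and the 13 higher without, 10 were the same: ULK1, ATG14, ATG9A, ATG4A, ATG4D, ATG16L2, NBR1, OPTN, PINK1 and FOXO3. Of the 18 lower with hemin and the 7 lower without, 6 were the same: ATG101, WIPI1, ATG3, ATG5, BNIP3 and TFEB. Members higher in both made up 25.0% and members lower in both 15.0%, against 15.5% and 14.8% of all genes tested. No member was called in opposite directions, against 2.19% of all genes. In neither comparison were 5 members called (ATG13, PIK3C3, PIK3R4, ATG4C and ATG12), or 12.5%, against 25.8% of all genes. Of the 12 members lowered by nilotinib with hemin and not called without it, 6 passed the test of the difference itself.

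That test, the interaction, subtracts the nilotinib effect without hemin from the effect with hemin. Since those effects were read at 0 h and 24 h, the test joins hemin with time and cannot tell them apart. It called 14 members, 2 higher and 12 lower, against 30.1% of all genes tested (17.1% higher and 13.0% lower), with a median of -0.33 over the members and 0.06 over all genes. With no composition factors the split was 3 higher and 7 lower, and the calls on ATG3, ATG5, GABARAPL2, SQSTM1 and UVRAG were lost. That fit called 6551 of all genes tested, whose split was not counted. The 12 lower ones were ATG101, RB1CC1, ATG14, UVRAG, ATG3, ATG5, ATG16L1, GABARAPL1, GABARAPL2, MAP1LC3B, SQSTM1 and OPTN, and the 2 higher ones ATG16L2 and ATG2A. Among the called members, the largest negative differences were in ATG101 at -1.93 (SE 0.21, edgeR adjusted p = 1.29e-05), MAP1LC3B at -1.50 (SE 0.20, edgeR adjusted p = 6.87e-05) and GABARAPL1 at -1.45 (SE 0.26, edgeR adjusted p = 0.000812), and ATG16L2 stood at 1.73 (SE 0.30, edgeR adjusted p = 0.00054). In the ATG8 family 3 of 5 members passed, all lower, while none of the 3 mitophagy genes and neither transcription factor passed. FOXO3 stood at -0.60 (edgeR adjusted p = 0.0556) and was called under 5 other settings, DESeq2 among them (adjusted p = 0.0334). It was also called without hemin DMSO replicate 2 or hemin nilotinib replicate 2. Its adjusted p ranged from 0.0143 to 0.207 over the alternatives. The uncalled ULK2 and MAP1LC3A, both low in counts, gave -2.78 (SE 2.15) and -1.57 (SE 0.69).

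Not all 14 calls held when 1 library was left out. The calls on ATG101, RB1CC1, ATG14, ATG16L1, ATG16L2, GABARAPL1 and MAP1LC3B did. The SQSTM1 call (log2 -1.32) was lost without mock DMSO replicate 1, hemin DMSO replicate 1 or mock nilotinib replicate 3 (log2 -1.20 to -1.09, edgeR adjusted p = 0.0509 to 0.0641), and the OPTN call (log2 -0.81) without mock DMSO replicate 1 (log2 -0.61, edgeR adjusted p = 0.0511). ATG2A (0.73) was lost at 6 of the 12 libraries, which were every mock nilotinib library, mock DMSO replicate 2 and hemin DMSO replicates 2 and 3 (log2 0.54 to 0.77). ATG5 (-0.53) was lost at 7, which were every mock DMSO library, mock nilotinib replicates 2 and 3 and hemin nilotinib replicates 2 and 3 (log2 -0.55 to -0.41). GABARAPL2 (-0.55) was lost at 8, all but hemin DMSO replicates 1 and 3, mock nilotinib replicate 1 and hemin nilotinib replicate 3 (log2 -0.57 to -0.40). UVRAG (-0.61) was lost at 9, all but mock DMSO replicate 3, hemin DMSO replicate 3 and hemin nilotinib replicate 1 (log2 -0.62 to -0.43), and ATG3 (-0.54) at 10, all but hemin DMSO replicate 2 and hemin nilotinib replicate 2 (log2 -0.56 to -0.38).

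**Figure D5:**
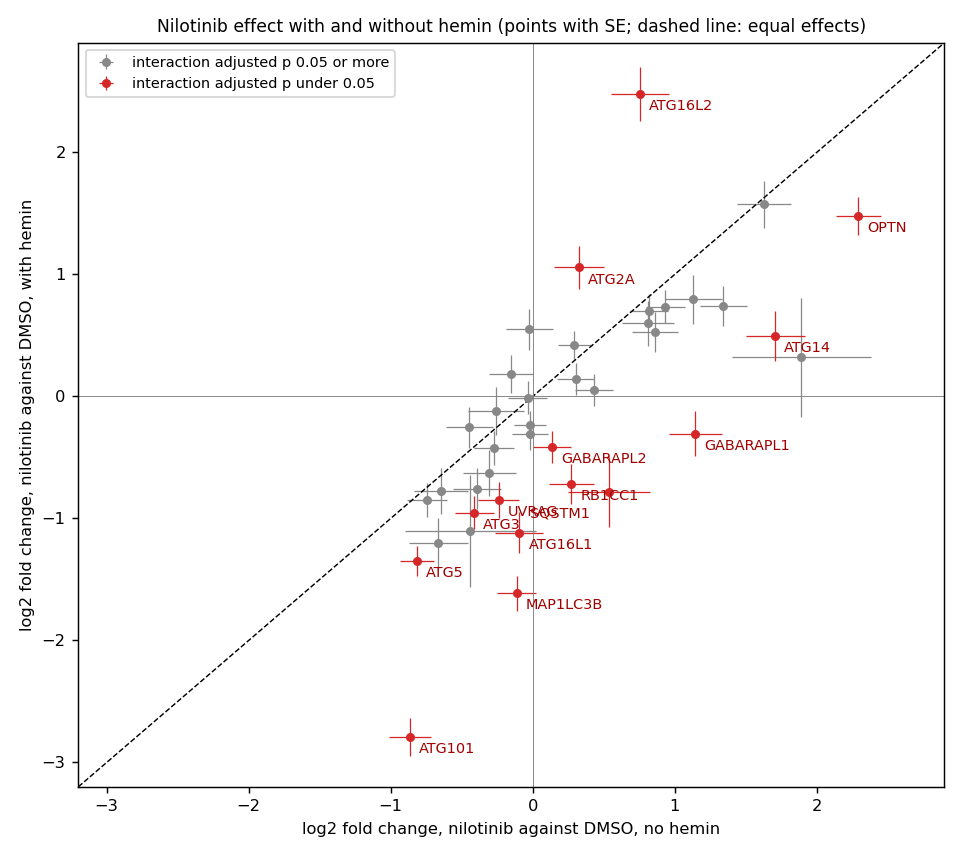
Log2 fold change of 39 members under nilotinib without hemin (horizontal axis) and with hemin (vertical axis), each point with its SE, and ULK2 left out because its counts were near 0. Red points passed the interaction test, and 12 of the 14 red points lie below the dashed line of equal effects, with ATG16L2 and ATG2A above it.

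Levels between genes were compared per kb of exon. SQSTM1 had the highest level of the 40 members in mock DMSO (26.3 ± 3.46 CPM per kb, mean ± SD, n = 3), in hemin DMSO (216 ± 59.1) and in hemin nilotinib (125 ± 60.5), and ranked 3 in mock nilotinib (38.2 ± 5.1), behind ATG4D (45.2 ± 7.69) and OPTN (39.4 ± 6.04), whose levels overlap within their SD. In mock DMSO the next members, GABARAPL2 (24.2 ± 0.693), ATG4D (23.6 ± 2.16) and MAP1LC3B (21.9 ± 2.09), also lay within each other's spread. OPTN ranked 18 in mock DMSO (8.03 ± 1.29) and 20 in hemin DMSO (8.88 ± 1.14). MAP1LC3B was at rank 2 in hemin DMSO (73.3 ± 2.39), and GABARAPL1 moved from rank 21 in mock DMSO to 7 there (22.4 ± 5.0). ATG101 moved from rank 29 (4.64 ± 0.394) to 9 (21.5 ± 1.1). ULK2 had the lowest level in all 4 conditions and MAP1LC3A the next lowest, and 33 of the 40 members had a mean of at least 10 CPM in every condition.

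Of 63 further autophagy genes listed beside the members, 60 were tested. Nilotinib with hemin changed 45, 20 higher and 25 lower, nilotinib without hemin 35, 17 higher and 18 lower, hemin without nilotinib 38, 20 higher and 18 lower, and hemin with nilotinib 2, VPS11 and TSC2, both lower. These were 75.0%, 58.3%, 63.3% and 3.33% of the 60, against 64.2%, 42.5%, 53.6% and 5.80% of all genes tested. Their median log2 fold changes in this order were -0.11, 0.07, -0.05 and 0.0015. The interaction called 22, 5 higher and 17 lower, or 36.7%, against 30.1% of all genes tested (17.1% higher and 13.0% lower). Among 11 other core genes tested, nilotinib with hemin raised 4 and lowered 6, or 90.9%, against 64.2% of all genes tested. VMP1, an ER membrane scramblase needed for autophagosomes, fell by log2 1.12 (SE 0.11, edgeR adjusted p = 4.35e-07), with means of 91.1 ± 6.37 CPM in mock DMSO, 65.3 ± 3.41 in mock nilotinib, 168 ± 14.1 in hemin DMSO and 77.4 ± 1.44 in hemin nilotinib. MAP1LC3B2 fell by 1.12 (SE 0.21, edgeR adjusted p = 0.00019), and ULK3 and ATG9B rose, at 0.75 and 0.70.

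For fusion with the lysosome, nilotinib with hemin raised 7 of 13 genes and lowered 3, and hemin without nilotinib raised 2 and lowered 4. These calls made up 76.9% and 46.2% of the list, against 64.2% and 53.6% of all genes tested. YKT6, a SNARE of the autophagosome, was at 97.9, 106 and 116 CPM in mock DMSO, 79.7, 81.3 and 94.9 in mock nilotinib, 378, 405 and 359 in hemin DMSO and 97.5, 96.7 and 102 in hemin nilotinib. Its hemin DMSO libraries stood far above the other 9. Hemin raised YKT6 in DMSO at log2 1.83 (SE 0.12, edgeR adjusted p = 1.67e-08), and nilotinib lowered it in hemin-treated cells at -1.95 (SE 0.12, edgeR adjusted p = 2.48e-09). RAB7A, the small GTPase of late endosomes, had means of 172 ± 13.9, 112 ± 0.826, 312 ± 21.8 and 133 ± 8.04 CPM in the order of conditions above and fell by log2 1.23 (SE 0.12, edgeR adjusted p = 2.06e-07) under nilotinib with hemin. The tethering factors TECPR1 and PLEKHM1 rose there, at log2 1.19 (SE 0.14, edgeR adjusted p = 1.56e-06) and 1.08 (SE 0.15, edgeR adjusted p = 8.47e-06).

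Of 14 other selective receptors, nilotinib with hemin raised 4 and lowered 6, or 71.4% of the list, against 64.2% of all genes tested. TAX1BP1, a ubiquitin receptor, was at 111, 123 and 127 CPM in mock DMSO, 83.8, 99.6 and 97.9 in mock nilotinib, 419, 555 and 457 in hemin DMSO and 90.8, 124 and 113 in hemin nilotinib. Again the 3 hemin DMSO libraries stood far above the other 9. TAX1BP1 rose under hemin in DMSO at log2 1.99 (SE 0.15, edgeR adjusted p = 4.64e-08) and fell under nilotinib with hemin at -2.12 (SE 0.15, edgeR adjusted p = 8.75e-09), with an interaction of -1.77 (SE 0.21, edgeR adjusted p = 2.61e-05). NCOA4, the receptor that carries ferritin to the lysosome, had means of 429.8 ± 39.6, 720.0 ± 166, 246 ± 14.7 and 539.7 ± 66.8 CPM and rose under nilotinib at log2 1.14 (SE 0.17, edgeR adjusted p = 2.15e-05) with hemin and 0.74 (SE 0.17, edgeR adjusted p = 0.00181) without, and hemin lowered it in DMSO by 0.81 (SE 0.17, edgeR adjusted p = 0.000712). FKBP8, a mitochondrial receptor, rose at log2 0.56 (SE 0.18, edgeR adjusted p = 0.0146) with hemin, and STBD1, a glycogen receptor below 1 CPM, fell by 1.49 (SE 0.52, edgeR adjusted p = 0.0201).

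Of 22 upstream regulators tested, nilotinib with hemin raised 5 and lowered 10, or 68.2% of the list, close to the 64.2% of all genes tested. SESN2 (Sestrin 2), a stress-induced inhibitor of mTORC1, was at 172, 185 and 156 CPM in mock DMSO, 116, 108 and 92 in mock nilotinib, 786, 410.1 and 374 in hemin DMSO and 69, 147 and 166 in hemin nilotinib. Its hemin DMSO libraries were the 3 highest, with replicate 1 far above the others, and hemin nilotinib replicate 1 was lowest of all. SESN2 rose under hemin in DMSO at log2 1.61 (SE 0.29, edgeR adjusted p = 0.000202) and fell under nilotinib with hemin at -2.04 (SE 0.29, edgeR adjusted p = 1.58e-05). DDIT4 (REDD1), another mTORC1 inhibitor, was at 466, 498 and 423 CPM in mock DMSO, 75.6, 53 and 42.9 in mock nilotinib, 383, 378 and 393 in hemin DMSO and 9.28, 145 and 161 in hemin nilotinib. All 6 nilotinib libraries lay below all 6 DMSO libraries, and hemin nilotinib replicate 1 stood far below its group. DDIT4 fell under nilotinib by log2 3.01 (SE 0.60, edgeR adjusted p = 0.000674) without hemin and 1.87 (SE 0.57, edgeR adjusted p = 0.00892) with it. PRKAA1 and PRKAB1, subunits of the energy sensor AMPK, rose under nilotinib with hemin at log2 1.15 (SE 0.12, edgeR adjusted p = 4.03e-07) and 0.81 (SE 0.13, edgeR adjusted p = 4.53e-05).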

How the data were processed

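RNA-seq of K562 cells was analysed in 12 libraries from 4 conditions, each with 3 biological replicates. The sequencing service of the authors read 150-base read pairs and counted them per gene. The deposited read counts were not normalized and were the input of every main test, and the deposited gene length (another column of that table) gave levels per kb. The authors also deposited FPKM per library, used only in alternatives, and FPKM means per condition, not used here. The submitters' processing notes name GRCh38.p12, DESeq and DESeq2, while the aligner, counter and strand setting are not given in the sources used here.

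Counts were fitted in R 4.3.3 with edgeR 4.0.16 (filterByExpr with minimum count 10 and minimum total 15, TMM, quasi-likelihood, 1 mean per condition over the 12 libraries, common biological coefficient of variation 0.198). The 5 tests were two-sided, with Benjamini-Hochberg adjustment over 20821 genes at 0.05. CPM are TMM-scaled. For 3 against 3 libraries an exact permutation test cannot go below p = 0.1, so none was run. The p-values measure the spread between replicate cultures of 1 line. The precision of low genes is limited by counting: 3 counts was taken as the floor per library.

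Values per library are given for up to 3 members of each role group, those called with the largest change, and for members among the 3 largest rises or falls of a comparison. RB1CC1, ATG3, ATG16L1, GABARAPL2, VPS11 and TSC2 were added after their values were seen. For 63 other autophagy genes, up to 2 rises and 2 falls per list are named. The members and lists were chosen with earlier results of these data known. Of the erythroid markers first listed, 1 is not reported here.

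Overlaps and 150-base words came from GENCODE 29, where all 40 members had the positions of the table, and promoters from RefSeq (GRCh38.p14). The labels number the replicates. Libraries with the same number deviated together from the means of their conditions, with r over 0.1 in all 3 pairs, for nilotinib without hemin (0.147, 0.164 and 0.139) and for hemin with nilotinib (0.392, 0.386 and 0.408), so the numbers were taken to pair these libraries. For nilotinib with hemin (-0.0737, 0.0942 and 0.272) and hemin without nilotinib (0.0888, 0.118 and 0.143) they were not. No such r was computed between libraries with different numbers, so the cut of 0.1 had no baseline. The values for hemin without nilotinib lay close to those for nilotinib without hemin. The main fit left the replicate numbers out. Alternatives were DESeq2 1.42.0, RLE, upper-quartile or no composition factors, other filters, a 2-fold minimum, limma-trend (limma 3.58.1) on log2(FPKM + 1) and log2(FPKM + 0.1), fits of only the 6 libraries compared, the replicate block, both together (chosen after seeing the data), and each library left out. The fit was tested on simulated counts with known changes. Figures were drawn in Python 3.11.15 with matplotlib 3.10.9.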

Additional observations from a re-analysis of the deposited data

Results flagged for a closer look

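At 14 members the nilotinib effect on the log2 scale differed between hemin-treated (24 h) and mock (0 h) cells in the interaction test of edgeR at an adjusted p under 0.05, against 30.1% of all genes tested. Hemin and time in culture cannot be told apart in this difference. Each value below is the effect with hemin minus the effect without, followed by both effects.

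The difference was negative at 12 members. In the ULK1 complex it was -1.93 (-2.79 with hemin, -0.86 without) for ATG101 and -0.99 (-0.72 with hemin, 0.27 without) for RB1CC1. In the ATG8 family it was -1.50 (-1.61 with hemin, -0.11 without) for MAP1LC3B, -1.45 (-0.31 with hemin, 1.15 without) for GABARAPL1 and -0.55 (-0.42 with hemin, 0.14 without) for GABARAPL2. Among the cargo receptors SQSTM1 stood at -1.32 (-0.79 with hemin, 0.54 without) and OPTN at -0.81 (1.48 with hemin, 2.29 without). In the PI3-kinase complex ATG14 stood at -1.21 (0.50 with hemin, 1.71 without) and UVRAG at -0.61 (-0.85 with hemin, -0.24 without). In the conjugation machinery the values were -1.02 (-1.12 with hemin, -0.09 without) for ATG16L1, -0.54 (-0.95 with hemin, -0.41 without) for ATG3 and -0.53 (-1.35 with hemin, -0.82 without) for ATG5.

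The difference was positive at ATG16L2, 1.73 (2.48 with hemin, 0.76 without), and at ATG2A, 0.73 (1.06 with hemin, 0.32 without). Groups of 3 libraries are too small for a test of single outlying libraries, so none was made.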

How the results depend on the processing

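No member changed direction while called under any setting run. Requiring a 2-fold change left 11 members for nilotinib with hemin, 7 for nilotinib without hemin, 8 for hemin without nilotinib, 1 for hemin with nilotinib and 7 interactions. No 2-fold count was made over all genes tested, so these counts have no background. Hemin with nilotinib was the least stable count: 2 members were called in the 12 libraries, 5 with no filter beyond 1 count per gene, 0 in the 6 libraries of the comparison alone and 9 there with the replicate block, an alternative chosen after seeing the data. Over all genes these fits called 1208, 1987, 183 and 1600. In all 12 libraries the replicate block gave 31, 20, 20, 3 and 16 members in the order above, and beyond PINK1 it changed no call in the 2 paired comparisons. Over all genes it called 13657, 9294, 11611, 1587 and 6845. Leaving out 1 library gave 27 to 30 members, 17 to 19, 15 to 19, 1 to 5 and 8 to 13. No count over all genes was kept for these fits, so the ranges have no background. The low interaction counts came without mock DMSO replicate 1 or mock nilotinib replicate 3 (8 each) and without mock DMSO replicate 2 or mock nilotinib replicate 2 (9 each), and hemin with nilotinib gave 5 without hemin nilotinib replicate 1, 4 without mock nilotinib replicate 1 and 1 without mock nilotinib replicate 2 or 3. Dropping the composition factors shifted the median of all genes by log2 0.18 for nilotinib with hemin, -0.24 for hemin without nilotinib and 0.21 for the interaction, and upper-quartile factors shifted it by 0.11 for nilotinib without hemin. The cause of these differences between settings was not tested. Counts limit ULK2, MAP1LC3A and GABARAP, and overlapping genes limit GABARAP, ATG9A and PINK1.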
